A study of Homo sapiens with 3 samples.

Results

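The 36 genes described here are human genes of the type I interferon response: genes that the pathway switches on, RNA sensors that start it, and STAT and IRF factors that carry its signal. They were picked by gene name and not by a rule on measured levels, though with earlier results of these data known. They make up 36 of the 41749 gene names on the array and are read by 49 probes, with more than 1 probe for 12 of the genes. Expression was measured in HCT116, an established human colorectal carcinoma line, on 3 single-colour Agilent arrays with Cy3-labelled RNA and 62976 spots each. NC is the array of cells given the negative control, and PRMT1-KD1 (KD1) and PRMT1-KD2 (KD2) are the arrays of cells transfected with siRNA against PRMT1, the main enzyme that places asymmetric dimethyl marks on arginine, including arginine 3 of histone H4. All cells came from the same line in McCoy's 5A medium with serum. The labels give no interferon treatment and no time after transfection. Each group holds 1 array, so a difference between arrays has no replicate check.

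Cells that sense viral RNA or DNA make type I interferon, which binds its receptor and, through the kinases JAK1 and TYK2, activates STAT factors. STAT2 and IRF9 are parts of the resulting complex ISGF3, which binds interferon-stimulated response elements in the promoters of the genes it induces. The induced proteins block viral entry, translation or replication, and they include many parts of the pathway itself, so the response also runs at a low level in cells that were not given interferon.

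The labels list the 2 siRNA sequences against PRMT1, shown here because they define the knockdown groups. Which of them belongs to KD1 and which to KD2 is not stated, and the study's text speaks of both siRNA and short hairpin RNA.
siRNA-1: cugaaguccaggucgauggugaaguc
siRNA-2: uuguagucuuuguacugcc
Signal of the PRMT1 probe was 6.03 on the NC array and, on the knockdown arrays, 2.75 (KD1) and 1.48 (KD2), as log2 of the processed signal minus the 75th percentile of the array, the scale of every level below. It thus stood at 10.3% of NC in KD1 and at 4.26% of NC in KD2.

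Promoters of the members were searched for the element that ISGF3 and IRF proteins bind. The RefSeq promoter table (build GRCh38.p14, 250 bases before to 50 after each annotated start) held 30 of the 36 members, DDX58 under its current symbol RIGI, with 39 promoters. IRF7, IFIT2, OAS2, OASL, MX2 and IFITM2 had no entry. The letters GAAANNGAAA, on either strand, occurred in 21 of these 30 genes (70.0%), against 4.38% of all 27305 genes and 3.57% of all 35116 promoters in the table. Of the 21 genes, 16 held more than 1 match, and 44 of the 45 matches began upstream of the start, with the median first base 95 bases before it. A site within 2 promoters of a gene was counted in each. All IFIT and IFITM genes with an entry held a match, and none of STAT2, IRF1 and IRF9 did. The gamma-activated site that STAT dimers bind, TTCNNNGAA, which reads the same on both strands, occurred in 10 of the 30 genes, against 9.38% of all genes. Of its 12 matches, 5 shared bases with a response element.

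The windows below are those of members whose levels are discussed most. They lie upstream of the start, run from 5′ to 3′ on the strand of the gene, and have the matched letters in capitals. In ISG15, a secreted ubiquitin-like modifier, and in IFIH1 and HERC5, overlapping matches form a longer run of the repeat, while OAS3, PARP14 and SAMD9 show a single match in the window.
ISG15, chr1:1013369-1013414, plus strand: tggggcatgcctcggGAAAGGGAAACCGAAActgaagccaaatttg
IFI6, chr1:27672261-27672322, minus strand: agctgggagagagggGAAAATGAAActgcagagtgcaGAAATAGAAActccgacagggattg
IFIH1, chr2:162318813-162318858, minus strand: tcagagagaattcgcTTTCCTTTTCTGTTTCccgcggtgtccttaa
OAS3, chr12:112938316-112938355, plus strand: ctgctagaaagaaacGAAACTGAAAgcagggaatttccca
IFITM1, chr11:313985-314024, plus strand: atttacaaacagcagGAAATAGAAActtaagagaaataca
PARP14, chr3:122680795-122680834, plus strand: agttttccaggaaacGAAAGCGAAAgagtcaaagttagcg
SAMD9, chr7:93118091-93118130, minus strand: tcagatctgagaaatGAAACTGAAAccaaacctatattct
IFIT1, chr10:89392492-89392544, plus strand: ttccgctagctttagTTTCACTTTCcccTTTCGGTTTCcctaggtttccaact
IFIT5, chr10:89414508-89414547, plus strand: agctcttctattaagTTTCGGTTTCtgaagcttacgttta
HERC5, chr4:88456979-88457024, plus strand: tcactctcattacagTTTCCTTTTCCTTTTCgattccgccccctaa
A match of these letters is a description of the promoter and does not show that a factor was bound in these cells.

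**Figure D1:**
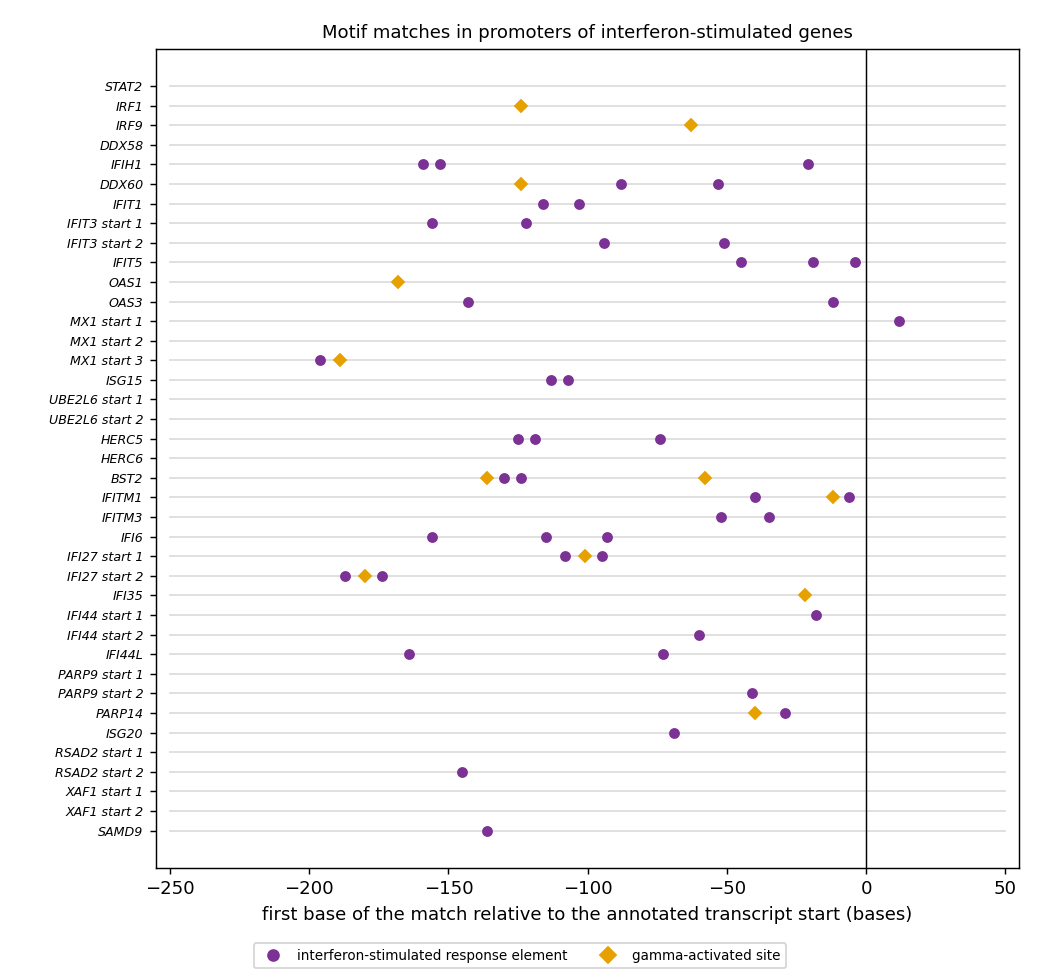
Each grey line is 1 annotated promoter of a member, from 250 bases before to 50 after the transcript start (black line); circles mark the first base of matches to the interferon-stimulated response element and diamonds those to the gamma-activated site. Of 45 response element matches, 44 lie before the start, and STAT2, DDX58, UBE2L6, HERC6 and XAF1 show neither motif.

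Of the 36 members, 35 had a probe usable on all arrays, and 26 of these were well above background on all 3. The only IFITM3 probe was marked as non-uniform on KD1 and was left out of every count. The brightest probes of 7 members, IFI44L, OAS1, OAS2, RSAD2, BST2, XAF1 and HERC6, were not well above background on any array, with levels between -5.15 and -2.67. These 7 include well known antiviral effectors, such as RSAD2 (viperin) and the surface tether BST2 (tetherin). The remaining 28 members were measured in each comparison, 26 on all arrays and MX2 and SAMD9 on NC and KD2. Where a value below background was raised to the array's dimmest signal above background, the difference given is a bound. MX2 on KD1 was so raised, and SAMD9 on KD1 was not. HCT116 is one cell line, yet in bulk RNA a smaller number of expressing cells and less RNA per cell cannot be told apart. Of 11 epithelial markers 8 were well above background on all arrays, while VIL1 and CEACAM5 were above it on none. Of 10 immune cell markers 3 were, namely CD14, CD3D and ITGAM. Against NC, CD14 changed by 0.03 in KD1 and 0.58 in KD2, CD3D by -0.69 and -0.32, and ITGAM by 0.46 and 1.78. CD3E, CD2, MS4A1, NKG7 and HLA-DRA were among the immune markers above background on none. The log2 of the summed signal of the immune markers was 1.20 on NC and 1.72 on KD2, with KD1 at 1.1. Any part of these markers in the results was not tested.

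**Figure D2:**
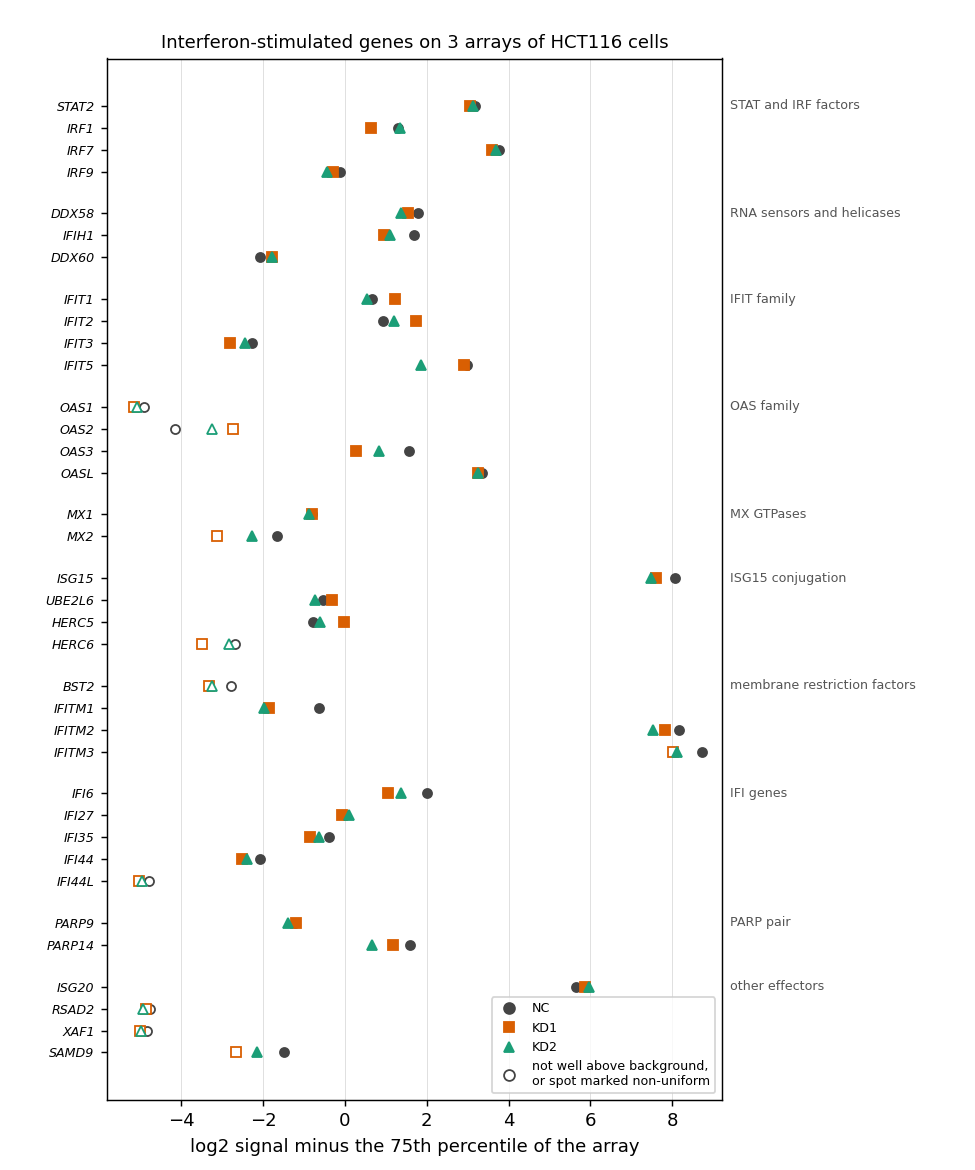
Level of each member on NC (circles), KD1 (squares) and KD2 (triangles), as log2 signal minus the 75th percentile of the array, 1 array per group, grouped by role. Open symbols mark arrays where the probe was not well above background or, for IFITM3 on KD1, where the spot was marked as non-uniform; levels of different genes come from different probes and are not comparable.

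In KD1, 7 of the 28 measured members were lower than NC by at least 1.5-fold (25%), beside 14.0% of all 19231 genes measured, and 2 were higher (7.14%), beside 12.4% of all genes. The lower members were OAS3, MX2, IFITM1, SAMD9, IFI6, IFIH1 and IRF1, and the higher ones were IFIT2 and HERC5. In KD2, 9 of 28 were lower (32.1%), beside 10.6% of all 19421 genes, and 0 were higher, beside 9.68% of all genes. Those 9 were IFITM1, IFIT5, PARP14, OAS3, SAMD9, IFITM2, IFI6, MX2 and IFIH1. MX2 and SAMD9 were not above background on KD1, so they entered the KD1 comparison through NC alone. With only genes above background on all 3 arrays, 5 of 26 members were lower in KD1 (19.2%), beside 11.98% of 17054 genes. Another 2 were higher (7.69%), beside 11.64%. In KD2, 7 of these 26 were lower (26.9%), beside 9.58%, and 0 were higher, beside 8.35%. The median change of the 28 members was -0.21 log2 in KD1, with -0.07 over all genes, and -0.21 in KD2, with -0.05 over all genes. Both comparisons share the NC array, so a high value of a gene on NC lowers it in both. The threshold of 1.5-fold is 0.585 on the log2 scale. MX2 (-0.593) and IFIH1 (-0.587) lay just past it in KD2 and ISG15 (-0.584) just short of it, and in KD1 the nearest members were IRF1 (-0.66) inside and IFIT1 (0.56) outside. Between the 2 knockdown arrays, the robust SD of the difference was 0.377 over 17054 genes that all 3 arrays measured above background, which is the spread against which single differences may be read.

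**Figure D3:**
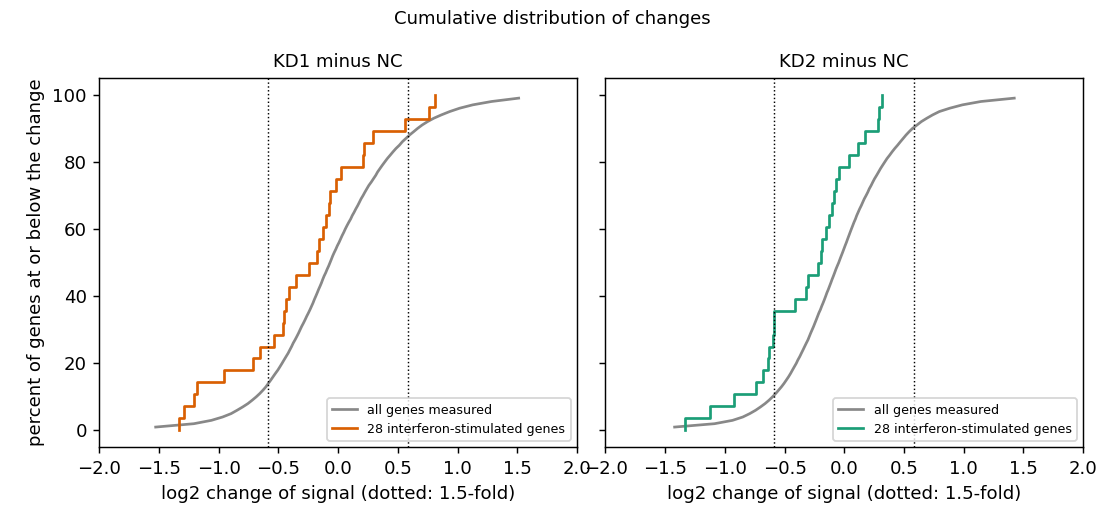
Cumulative share of genes (percent) at or below each log2 change in KD1 and KD2 against NC, for all genes measured (grey) and the 28 measured members (coloured), with 1.5-fold marked by dotted lines. The member curve lies to the left of the curve of all genes over most of its range, reaching 25% and 32.1% at the lower line against 14.0% and 10.6% for all genes.

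Among the factors of the pathway, little differed except for IRF1. STAT2, a subunit of ISGF3, had levels of 3.18 in NC, 3.05 in KD1 and 3.13 in KD2. The DNA-binding subunit IRF9 lay at -0.12, -0.28 and -0.44 on the same arrays, and IRF7, which drives interferon transcription, at 3.78, 3.60 and 3.69. The differences of these 3 factors from NC were all at most 0.32 log2 in size, below the spread between the knockdown arrays. IRF1, a factor induced by interferon gamma, was 1.30 in NC, 0.64 in KD1 and 1.35 in KD2. Only the KD1 array was low, 1.58-fold below NC (-0.66 ± 0.19, where ± is the combined error that the scanner software gives for both spots), while KD2 was 0.04 ± 0.21 from NC.

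The RNA sensors went different ways. IFIH1 (MDA5), which senses long double-stranded RNA, was 1.68 in NC, 0.97 in KD1 and 1.09 in KD2. Both knockdown arrays lay below NC, at 61.1% and 66.6% of its signal (-0.71 ± 0.21 and -0.59 ± 0.21). DDX58 (RIG-I), which senses RNA with a 5′ triphosphate, was 1.78, 1.54 and 1.37 at its brighter probe (hg19, chr9:32455398-32455457), a difference of -0.25 in KD1 and -0.41 in KD2. A dimmer DDX58 probe, at chr9:32455728-32455787, went the other way, with -2.17 in NC, -1.47 in KD1 and -1.87 in KD2. The 2 probes thus disagree in direction. The helicase DDX60 lay at -2.07, -1.78 and -1.79, and its differences of 0.29 were smaller than their spot errors of 0.35 and 0.36.

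The IFIT family, which binds foreign 5′ ends of RNA and stops their translation, showed no common direction. IFIT1 was 0.68 in NC, 1.24 in KD1 and 0.55 in KD2, so KD1 was higher than both other arrays. IFIT2 was 0.92, 1.74 and 1.21 at its brighter probe (chr10:91068397-91068456), 1.76-fold higher in KD1 (0.82 ± 0.21) and 0.29 higher in KD2. Its other probe, chr10:91066613-91066672, gave 0.11 in KD1 and -0.15 in KD2, so the KD1 difference of IFIT2 rests on 1 of 2 probes. IFIT3 was at -2.26, -2.80 and -2.44, near background with a spot error of 0.41 on its KD1 difference. IFIT5 was 2.99 in NC, 2.91 in KD1 and 1.87 in KD2. It was 2.18-fold lower in KD2 (-1.13 ± 0.20) and at 94.7% of NC in KD1.

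Of the OAS family, whose products make 2′-5′ oligoadenylates on sensing double-stranded RNA, only OAS3 and OASL were above background at the probe that stands for the gene. OAS3 was 1.57 in NC, 0.28 in KD1 and 0.84 in KD2 (chr12:113410131-113410190). Both knockdown arrays were below NC, at 40.8% (-1.29 ± 0.21) and 60% (-0.74 ± 0.21) of its signal. A dimmer OAS3 probe, chr12:113405902-113405961, was -2.26 on NC and -2.71 on KD2 and not above background on KD1, where NC was at least 1.67-fold higher. OASL, which lacks the enzyme activity, was 3.35, 3.26 and 3.25 and differed by 0.10 log2 in both. The 2 MX GTPases, which trap viral nucleocapsids, differed from each other. MX1 was -0.79, -0.81 and -0.86. MX2 was -1.66 on NC and -2.26 on KD2, and not above background on KD1, where NC was at least 2.52-fold higher. The MX2 value comes from a probe annotated to an Ensembl transcript (chr21:42735919-42735978), while the probe annotated to its RefSeq mRNA (chr21:42780501-42780560) was not above background on any array.

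ISG15 and its conjugation enzymes split. ISG15 was 8.06 in NC, 7.59 in KD1 and 7.47 in KD2. It was 1.38-fold lower in KD1 (-0.46 ± 0.20) and 1.5-fold lower in KD2 (-0.58 ± 0.20), just short of the threshold in KD2. UBE2L6, the E2 enzyme that passes ISG15 on, was -0.54, -0.32 and -0.73. HERC5, the main ligase for ISG15, was -0.78 in NC, -0.02 in KD1 and -0.61 in KD2. KD1 was 1.70-fold higher than NC (0.76 ± 0.23) and KD2 lay close to NC (0.18 ± 0.23).

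The IFITM genes encode small membrane proteins that keep enveloped viruses from fusing with the cell. IFITM1 was -0.63 in NC, -1.84 in KD1 and -1.97 in KD2 (chr11:315209-315268). Both knockdown arrays were far below NC, at 43.3% (-1.21 ± 0.27) and 39.6% (-1.34 ± 0.28) of its signal, and 0.13 log2 apart. A further IFITM1 probe was not above background on any array. IFITM2 was 8.17, 7.81 and 7.53, a difference of -0.35 ± 0.20 in KD1 and -0.64 ± 0.20 in KD2. IFITM3 was 8.72 on NC, 8.01 on the spot marked as non-uniform on KD1, and 8.10 on KD2, 1.53-fold lower than NC in KD2 (-0.61 ± 0.20). The IFITM2 and IFITM3 probes were the most alike of 1162 pairs of probes for different members, with 34 of 60 bases matched without gaps and a longest shared run of 17 bases. Cross-hybridization between them was not tested.

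Of the IFI genes, IFI6, a mitochondrial and endoplasmic reticulum protein that protects cells from viral damage, was 2.0 in NC, 1.04 in KD1 and 1.37 in KD2. Both knockdown arrays were lower, at 51.5% (-0.96 ± 0.21) and 64.5% (-0.63 ± 0.21) of NC. IFI35 was -0.40, -0.85 and -0.62, and IFI44 was -2.08, -2.52 and -2.38. Neither passed 1.5-fold. IFI27 was 0.00 in NC, -0.07 in KD1 and 0.12 in KD2, differences below its spot error.

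PARP14, which adds ADP-ribose to proteins, was 1.59 in NC, 1.17 in KD1 and 0.66 in KD2. It was 1.33-fold lower in KD1 (-0.41 ± 0.21) and 1.90-fold lower in KD2 (-0.92 ± 0.21). Its neighbour PARP9 was -1.22, -1.20 and -1.38. The translation inhibitor SAMD9 was -1.47 on NC and -2.15 on KD2, a difference of -0.68 ± 0.33. On KD1 it was at -2.66 and not above background, a measured difference from NC of -1.18 ± 0.40. The exonuclease ISG20 was 5.64, 5.86 and 5.96, higher on both knockdown arrays by 0.21 and 0.32.

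Probe composition moved with part of these differences. For each member, the median change was taken over genes of like probe GC content (5 classes) and like brightness (10 classes). For ISG15 and IFITM2, whose probes are rich in GC, this median was -0.39 in KD1 over 469 genes, as large as the change of IFITM2 and most of that of ISG15, which differed from like genes by 0.04 and -0.07. In KD2, IFITM2 differed from like genes by -0.39 and ISG15 by -0.29. For IRF1 in KD1 the difference from like genes was -0.35. OAS3 (-0.98), IFITM1 (-1.15), IFI6 (-0.76), IFIH1 (-0.71), MX2 (-1.09) and SAMD9 (-1.37) remained past 1.5-fold below like genes in KD1, and PARP14 came to -0.70, since like genes were higher than NC by 0.28. Relative to like genes, 7 members were lower and 3 higher in KD1, where 10.4% of all genes were lower and 12% higher, and 6 were lower and 0 higher in KD2, where the shares were 9.10% and 9.96%. In KD2 IFIH1 (-0.54), IFI6 (-0.50) and IFITM2 were then within 1.5-fold. The part of probe composition in the results was not tested.

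**Figure D4:**
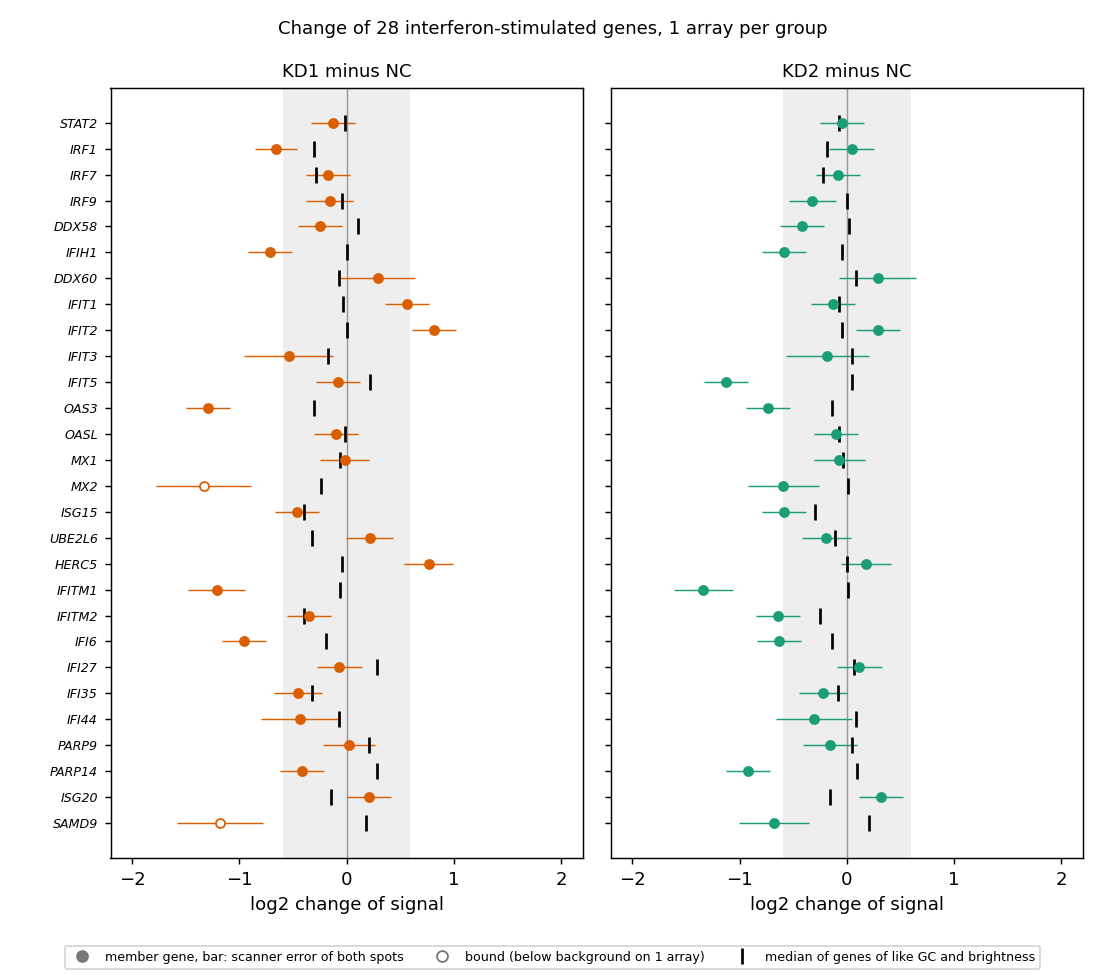
Log2 change of the 28 measured members in KD1 (left) and KD2 (right) against NC, 1 array each. Bars are the combined scanner error of both spots, and open circles are genes below background on 1 array. The grey band is the range within 1.5-fold, and black ticks are the median change of genes of like probe GC content and brightness. In the left panel MX2, OAS3, IFITM1 and SAMD9 lie farthest left and IFIT2 and HERC5 lie right of the band; in the right panel IFITM1, IFIT5 and PARP14 lie farthest left. ISG15 and IFITM2 lie near their ticks in KD1.

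The sign of the group's median differed between scalings. With the arrays scaled to the E1A spike-in RNA in place of the 75th percentile, the median over all genes became 0.58 in KD1 and 0.24 in KD2, and that of the members 0.44 and 0.08. Under it 2 members were lower and 8 higher in KD1, beside 1.88% and 49.5% of all genes, and 3 were lower and 1 higher in KD2, beside 3.62% and 22.6%. With the deposited processed values as they stand, 4 were lower and 6 higher in KD1, beside 3.58% and 32.5% of all genes, and 4 were lower and 0 higher in KD2, beside 7.41% and 13.4%. Scaled to the median, the arrays gave 6 lower and 3 higher in KD1, beside 9.61% and 16.5% of all genes, and 10 lower and 0 higher in KD2, beside 18.1% and 6.05%. Relative to the median over all genes, the members stood at -0.14 in KD1 and -0.16 in KD2 under each of these. This is fixed by arithmetic, since they differ from the main scaling by 1 constant per array. Other alternatives could move it. It was -0.15 and -0.23 with quantile normalization, -0.10 in both with normexp background correction, and -0.002 and -0.02 with no background filter. All 18 changes past 1.5-fold kept their sign under every alternative in which single members were recomputed. These alternatives leave out the other probe choices (the mean over probes and every probe on its own). IRF1 in KD1 came to -0.01 with spike-in scaling. Under that scaling OAS3 (-0.65) and MX2 (-0.69) were the members still lower by 1.5-fold in KD1, and IFITM1 (-1.05), IFIT5 (-0.83) and PARP14 (-0.63) those in KD2. Normexp background correction, run with an offset of 50, was set in place of the scanner's. Adding an offset narrows the log2 differences of dim signals by construction. With this correction, the changes of 4 members past the fold shrank by more than 1.5 times. IFITM1 came to -0.59 in KD1 and -0.55 in KD2, MX2 to -0.47 and -0.18, SAMD9 to -0.51 and -0.29, and HERC5 to 0.31 in KD1.

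The 2 knockdown arrays were also set against each other, which leaves out NC. Of the 28 members, 2 were lower in KD1 than in KD2 by 1.5-fold, beside 9.66% of 19544 genes, and 3 were higher, beside 8.94%. The lower ones were MX2 (-0.74) and IRF1 (-0.70). The higher ones were IFIT5 (1.05), IFIT1 (0.69) and HERC5 (0.59). These shares lay near those of all genes.

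With KD1 and KD2 taken as 2 arrays of a knockdown group and the lone NC array assumed to vary as they do, limma called 0 of the 28 members after Benjamini-Hochberg adjustment over all 20050 genes, of which it called 83 (0.414%). Without adjustment, 5 members had p under 0.05 in limma, beside 8.12% of all genes: IFITM1, OAS3, SAMD9, MX2 and IFI6. IFITM1 was the lowest, with a mean change of -1.27 (limma adjusted p = 0.27). IFITM1 was lower than NC by 1.5-fold on both knockdown arrays, as were OAS3, MX2, SAMD9, IFI6 and IFIH1. Of these, MX2 and SAMD9 were not above background on KD1. The share of all genes lower on both was not computed. Both differences use the same NC array, so being lower on both is not independent agreement. Over the alternatives run in limma the lowest adjusted p of any member in limma ran from 0.191 to 0.707. The spread behind these p-values is the difference between KD1 and KD2, which the labels give as separate treatments. Their PRMT1 signal differed as well (2.75 and 1.48). It is not a spread between replicate cultures of 1 condition, which the labels do not give.

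Upstream of the members, the ligands were close to silent. Of 21 interferon genes 17 had a usable probe, 12 of which were not above background on any array, and 3 were above it on all. IFNA4 was -2.25 in NC, -1.31 in KD1 and -2.2 in KD2, higher in KD1 by 0.94, and IFNE, not above background on NC, was at least 0.71 log2 higher in KD2. IFNB1, named after its values were seen because it is the first interferon made on RNA sensing, was above background on KD1 alone, at -2.92, too near the detection limit of NC to give a fold. All 9 receptor chains and kinases were above background. IFNAR2, a chain of the type I receptor, was 2.57 in NC, 1.67 in KD1 and 2.05 in KD2 (-0.90 and -0.52), and JAK1 was higher by 0.60 and 0.41. In KD1, 1 of the 9 was lower and 1 higher by 1.5-fold (11.1% each), and in KD2 none passed it. Of all genes measured, 14.0% were lower and 12.4% higher in KD1, and 10.6% and 9.68% in KD2. The counts of the lists below stand beside these same shares.

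Among 10 measured STAT and IRF factors outside the members, 1 was lower (10%) and 2 were higher (20%) in KD1. In KD2, 2 were lower (20%) and 1 higher (10%). STAT3, which signals for interleukin 6 and related cytokines, was -1.11 in NC, 0.19 in KD1 and 0.24 in KD2, higher by 1.30 and 1.35. STAT5B was higher by 0.69 in KD1 and STAT4 changed by -0.79 in KD2. Of 15 measured inhibitors, 1 was lower (6.67%) and 2 were higher (13.3%) in KD1. In KD2, 2 were lower and 2 higher (13.3% each). SOCS3, a feedback inhibitor that STAT3 induces, was 2.22 in NC, 2.90 in KD1 and 3.64 in KD2, and the deubiquitinase CYLD was higher by 0.81 and 0.69. The phosphatase PTPN6 changed by -0.74 and -0.75, and NLRX1 by -0.34 and -0.77.

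Of 17 measured genes of nucleic acid sensing, 2 were lower (11.8%) and 3 higher (17.6%) in KD1. In KD2, 4 were lower (23.5%) and 1 higher (5.88%). Of all genes, 14.0% were lower and 12.4% higher in KD1, and 10.6% and 9.68% in KD2. EIF2AK2 (PKR), which stops translation on double-stranded RNA, was 4.64, 3.83 and 4.21 (-0.81 and -0.43). The adaptor TRAF6 was higher by 0.86 in both, TLR3 changed by -0.68 and -0.50, and DHX58 (LGP2) by -0.47 and -0.60. Of the 41 other interferon-induced genes measured, 4 were lower (9.76%) and 2 higher (4.88%) in KD1. In KD2, 8 were lower (19.5%) and 3 higher (7.32%). SAMHD1, which depletes nucleotides, was lower by 0.95 and 0.67, LGALS3BP by 0.73 and 0.64, RNF213 by 0.41 and 1.24, and IFI30 by 0.48 and 0.85. GBP2 was 1.46 higher in KD2 and 0.01 in KD1. Of the antigen presentation genes, 3 of 19 were lower (15.8%) and 1 higher (5.26%) in KD1. In KD2, 5 of 20 were lower (25%) and 0 higher. PSMB9, an immunoproteasome subunit, changed by -0.84 and -0.77, ERAP2 by -0.66 and -0.37, HLA-C by -0.49 and -1.03, HLA-B by -0.35 and -0.98 and HLA-G by -0.44 and -0.63. Probes for HLA genes can read more than 1 of these closely related genes.

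**Figure D5:**
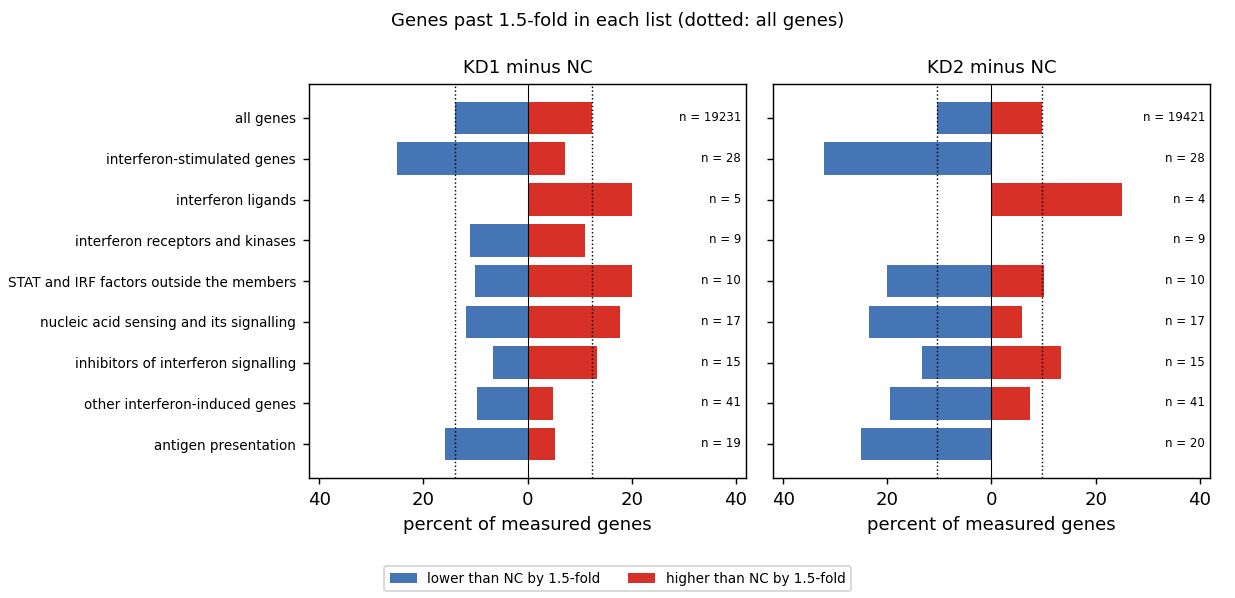
Percent of measured genes lower (left, blue) and higher (right, red) than NC by at least 1.5-fold in KD1 and KD2, for all genes, the members and 7 lists of pathway genes; n is the number measured and dotted lines mark all genes. The members reach 25% lower in KD1 and 32.1% lower in KD2, while the receptors and kinases have none past the fold in KD2.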

How the data were processed

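Total RNA of HCT116 cells was labelled with Cy3 and hybridised to 3 single-colour Agilent arrays, 1 per group, all on 1 slide. The authors deposited scanner tables made with Agilent Feature Extraction 10.7.1.1 (version per the labels), whose processed signal is a background-corrected intensity, and a table of processed values, whose intensity columns match the scanner signals before any scaling between arrays. Their methods name GeneSpring 13.1 and a threshold of 1.5-fold with p under 0.01.

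From these, control spots and 130 of 58201 probes with an outlier spot on any array were left out, log2 processed signal was centred on each array's 75th percentile over the same 58071 probes, and a gene was read at its brightest probe by the mean over arrays. A gene was measured in a comparison if well above background on either array; below background, its value was raised, where lower, to the array's dimmest signal above background. Well above background were 40.7%, 41.6% and 42.3% of probes on NC, KD1 and KD2; no spot was saturated, and repeat spots of a probe had a median SD of 0.045, 0.054 and 0.039 log2. With 1 array per group the number of arrays limits the precision, and differences were described against 1.5-fold and the share of all genes past it. limma 3.58.1 (R 4.3.3) compared both knockdown arrays with NC. Scripts ran in Python 3.11.15 and were tested on simulated data. Alternatives were background correction, scaling, filters, probe choice, outlier spots and fold. The correction for GC content and brightness was chosen after seeing the data. The members and gene lists were chosen with earlier results of these data known. Named genes are all members, PRMT1 and, per pathway list, at most 5 genes past 1.5-fold in a knockdown and above background on all arrays, by mean absolute change. IFNB1, IFNE, IFNL1, IFNL2 and the cell type markers were named outside this rule. Probe positions are hg19. Arrays of SMARCA4 knockdown were not analysed here. Some genes counted in the lists are not reported here by name.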

Additional observations from a re-analysis of the deposited data

Results flagged for a closer look

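Probes that did not stand for their gene were above background on a knockdown array and not on NC at 2 members. An OAS2 probe at chr12:113448429-113448488 (hg19) was at -1.56 on KD1, at least 2.19-fold above NC, and was not above background on NC (-4.02) or KD2 (-5.04), while the other 2 OAS2 probes were above background on no array. A PARP9 probe at chr3:122247297-122247356 was at -1.90 on KD1 and -2.47 on KD2, with NC at -2.61 and not above background. The measured differences were 1.64-fold in KD1 and 1.1-fold in KD2, with spot errors of 0.40 and 0.44 log2. The brighter PARP9 probe differed by 0.02 and -0.15.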

How the results depend on the processing

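In all, 79 of 103 recomputed counts and medians of the members, and 491 of 556 recomputed changes of single members, stayed close to the values given (counts within 1.5 times, medians within 0.1 log2, single changes within the SD between the knockdowns). With normexp background correction, 3 members were lower and 1 higher in KD1 (all genes 4.99% and 8.64%), 4 lower in KD2 (5.01%), and 3 past the fold between the knockdowns. With spike-in scaling, 2 were lower and 8 higher in KD1, 3 lower and 1 higher in KD2, and the member medians turned to 0.44 in KD1 and 0.083 in KD2. With the deposited processed values, 4 were lower and 6 higher in KD1 and 4 lower in KD2, and the KD1 median turned to 0.20. Median scaling gave medians of -0.10 in KD1 and -0.36 in KD2. At a fold of 2, 4 were lower and 0 higher in KD1 (all genes 3.57% and 4.19%), 2 lower in KD2 (2.48%), and 1 past it between the knockdowns. The mean over probes left 1 higher in KD1 (all genes 10.1%), every probe on its own gave 5 (12.6%), and no filter gave 1 higher in KD2 (11.3%). With no filter the member medians, -0.23 in KD1 and -0.16 in KD2, lay at those of all genes, -0.23 and -0.14. The mean of the list in KD2 was -0.32. limma called 0 members under each alternative run with it, which leaves out the GC content and brightness correction. The scaling shifts act alike on all genes, and the normexp offset of 50 narrows log2 differences of dim signals by construction. For the other changes the cause was not tested. Signal near background limits MX2, SAMD9, IFITM1 and HERC5. No paired analysis was possible because each group holds 1 array; without either knockdown array limma has no residual degrees of freedom, and the change of the other array is a value with no test.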

Other observations

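The response element was also counted in promoters of genes that are no members. It occurred in 53.8% of 39 other interferon-induced genes and 57.9% of 19 antigen presentation genes with a promoter entry, in 22.2% of 18 genes of nucleic acid sensing, and in 0 of 8 receptors and kinases. Of the measured members with the element, 5 of 17 were lower than NC in KD1 and 7 of 17 in KD2 (medians of -0.41 and -0.31), and of those with an entry and no match 1 of 6 and 0 of 6. The 423 other genes with the element that were measured in KD1 were lower in 12.3% of cases and higher in 15.1%, with a median of -0.05, beside 11% and 13.9% of 10796 genes without it and a median of -0.01. In KD2, 421 such genes were lower in 9.26% and higher in 7.60% of cases, beside 10.4% and 9.21% without it. These shares are descriptions, and no test was made of them.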
